A study of Rattus norvegicus with 6 samples.

Results

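The miR-15/16 family comprises the microRNAs (miRNAs) that carry the seed AGCAGCA, the stretch at positions 2 to 8 through which a miRNA recognises its messenger RNA targets. Its members were taken as the miRNA spots that the array design names rno-miR-16, rno-miR-15b, rno-miR-195, rno-miR-497 or rno-miR-322, which gave 5 of the 677 rat miRNAs on the array, with 10 of its 1644 probes. Of the 5 members, miR-16 was well above background on 6 of 6 arrays and miR-15b on 5, and both were compared between the groups. miR-195, miR-497 and miR-322 were well above background on 0 arrays and could not be compared. The rule for members uses the seed and no signal, but the family was picked for description with earlier results of these data known.

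The study looked for miRNAs in blood plasma that mark liver damage by thioacetamide, a compound that hepatocytes convert into reactive metabolites. Male Wistar rats weighing 393 to 428 g at the start received one intraperitoneal injection, either of thioacetamide at 100 mg/kg in 0.9% (v/v) saline or of that saline alone. Plasma RNA was taken 24 h later and hybridised to 1-colour Agilent rat miRNA arrays, 1 array per rat, with 3 vehicle and 3 thioacetamide rats. The labels give no genotype other than the strain and no age. Body weights differ from label to label, so each array stands for its own rat. With 1 array per rat, the spread behind each p-value joins differences between rats with differences between arrays. The number of arrays limits the precision of every comparison.

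Members of this family act by pairing their shared seed with messenger RNAs, and they are known for holding back the cell cycle and for lowering the survival protein Bcl2. The genes for miR-15b and miR-16 form one cluster, those for miR-497 and miR-195 another, and miR-322 (the rodent counterpart of human miR-424) lies beside miR-503. In blood, miR-16 is abundant in red cells, and together with the red cell miRNA miR-451 it is used to recognise plasma into which red cells have leaked. It has also served as a reference for scaling plasma measurements. Plasma holds no cells of its own, so a level here is RNA carried in vesicles, protein complexes and cell remnants. Amount released, number of source cells and rate of clearance cannot be told apart in such a level.

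The mature sequences are shown because they divide the family into what is shared and what an array probe can tell apart. They come from RefSeq, build GRCr8, where all 5 members matched by name (the -5p arm), and the seed is in capitals:
miR-16: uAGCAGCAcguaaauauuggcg
miR-15b: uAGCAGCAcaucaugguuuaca
miR-195: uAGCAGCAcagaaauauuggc
miR-497: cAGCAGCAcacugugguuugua
miR-322: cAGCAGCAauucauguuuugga
Among the 724 mature rat miRNAs of that table, these 5 and no other had this seed. The same letters begin at position 1 instead of 2 in miR-103 and miR-107, which are counted here as relatives and not as members. Beyond the seed the members diverged. miR-195 differed from miR-16 at 2 of the 21 positions they share, G10A and U11G, counted from the 5′ end with the base of miR-16 first. miR-15b differed from miR-16 at 8 of 22 positions, miR-322 at 10 and miR-497 at 11.

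In GRCr8 the mature miR-15b lies at chr2:155555197-155555218 and miR-16 at chr2:155555343-155555364, both on the plus strand. Their precursor genes Mir15b and Mir16 are 51 bases apart and lie within the span of Smc4, a gene for a condensin subunit. miR-497 lies at chr10:55450172-55450193 and miR-195 at chr10:55450509-55450529, both on the plus strand, with 255 bases between their precursor genes. miR-322 lies at chrX:137726198-137726219 on the minus strand, 220 bases from Mir503, within an annotated long non-coding RNA gene. The gene table used holds spans only, so exon and intron were not assigned. The hairpin of miR-16 is shown because both of its arms were on the array and the readings of the arms differed, with the 5′ arm, the miR-16 measured here, in capitals:
Mir16 hairpin: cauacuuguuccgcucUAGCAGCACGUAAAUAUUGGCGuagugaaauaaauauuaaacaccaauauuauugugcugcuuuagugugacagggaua

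The array read each member with 2 probes of 10 spots each. The longer probe of a member has 1 base more at the end that pairs with the seed. The probes are DNA and antisense to the miRNA, copied from the scanner files, with that extra base in capitals. They are shown for the members the results turn on and for miR-195, the closest relative of miR-16:
miR-16 shorter probe: cgccaatatttacgtgct
miR-16 longer probe: cgccaatatttacgtgctG
miR-15b shorter probe: tgtaaaccatgatgtgctg
miR-15b longer probe: tgtaaaccatgatgtgctgC
miR-195 shorter probe: gccaatatttctgtgctg
miR-195 longer probe: gccaatatttctgtgctgC
The probes of miR-16 pair with positions 5 to 22 and 4 to 22 of the miRNA, and those of miR-15b with positions 4 to 22 and 3 to 22. They therefore read mainly the part outside the seed. The longer probe of miR-195 would leave 2 of its 19 bases unpaired on miR-16, and the longer probe of miR-15b 8 of its 20.

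The longer probe of miR-16 was 4.36, 4.19 and 4.23 times as bright as the shorter one on vehicle 1, 2 and 3, and 4.86, 3.78 and 3.87 times as bright on thioacetamide 1, 2 and 3. For miR-15b both probes were well above background on vehicle 1 alone, where the ratio was 8.70. Probes of a single miRNA thus differed in brightness, and no signal is read here as an amount of one member relative to another.

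Before any scaling between arrays, the signal of miR-16, summed over its 2 probes, was 2892, 2196 and 1454 on vehicle 1, 2 and 3. It was 2865, 945 and 1574 on thioacetamide 1, 2 and 3. The groups overlapped, and the value of thioacetamide 1 was almost that of the brightest vehicle array. The unscaled signal of miR-15b was 304, 275 and 175 on the vehicle arrays and 348, 145 and 257 on the thioacetamide arrays. These groups overlapped too. The unscaled difference was -0.37 on the log2 scale for miR-16 (exact two-sided permutation p = 0.6, n = 3 per group) and -0.06 for miR-15b (exact permutation p = 0.9), where 3 against 3 arrays cannot give a p below 0.1. Equal volumes of plasma were extracted, per the labels.

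To set the arrays on one scale, each was divided by the 75th percentile of the 12 probes detected on all 6 arrays. The scaled log2 signal of miR-16 was then 11.59, 11.47 and 11.18 on vehicle 1, 2 and 3 and 10.30, 10.25 and 10.30 on thioacetamide 1, 2 and 3. Every thioacetamide array lay below every vehicle array. The mean was 11.41 ± 0.21 (SD, n = 3) for vehicle and 10.28 ± 0.03 for thioacetamide. The difference was -1.13 ± 0.33 (SE; 95% confidence interval -1.91 to -0.35; 2.19-fold) and missed the threshold of 0.05 (limma, Benjamini-Hochberg adjusted p = 0.0585, unadjusted p = 0.0119). It had the fifth most negative difference of the 59 miRNAs compared.

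The scaled log2 signal of miR-15b, transcribed with miR-16, was 8.34, 8.47 and 8.13 on the vehicle arrays and 7.26, 7.55 and 7.69 on the thioacetamide arrays. Again no thioacetamide array reached a vehicle array. The difference was -0.81 ± 0.34 (SE; 95% confidence interval -1.62 to -0.01; limma adjusted p = 0.137), which did not pass. On thioacetamide 1 miR-15b was not well above background although its longer probe read 300.5. The dimmest probe called detected on that array read 444.5, against 19.6 to 153 on the vehicle arrays and 42.1 and 46.4 on thioacetamide 2 and 3.

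**Figure D1:**
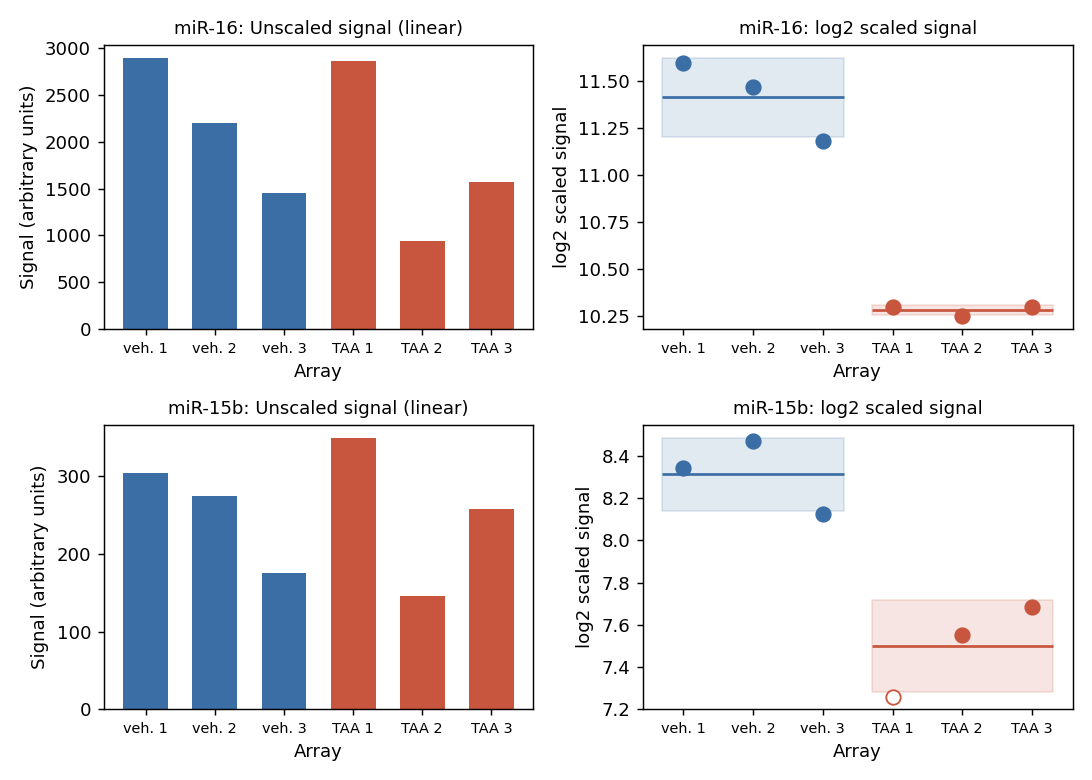
Signals of miR-16 (top) and miR-15b (bottom) on each array, with the unscaled linear signal as bars (left) and the scaled log2 signal as points (right). Blue is vehicle and red is thioacetamide (TAA), lines and bands are the group mean ± SD (n = 3), and the open point was not well above background. The unscaled groups overlap, while the scaled miR-16 values are 11.18 to 11.59 for vehicle and 10.25 to 10.30 for thioacetamide.

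Of the 5 members, 0 rose, 0 fell, 2 did not pass and 3 were not compared. Over all 59 miRNAs compared, 10 passed (16.9%), of which 1 was lower (1.69%) and 9 were higher (15.3%). Before adjustment 21 of the 59 had p under 0.05 (35.6%), 5 of them lower (8.47%), and miR-16 and miR-15b were among these 5. The groups did not overlap in 22 of the 59 (37.3%). In 6 of them (10.2% of the 59) every thioacetamide array lay below every vehicle array, and miR-16 and miR-15b were among these 6. The median log2 difference of miR-16 and miR-15b was -0.97, against 0.45 for all 59. The longer and shorter probes of miR-16 each separated the groups, with scaled differences of -1.14 and -1.10, and so did the longer probe of miR-15b with -0.86 (exact permutation p = 0.1 for each). All probes of an array share its scale factor, so these probes are not separate support for a difference. The shorter probe of miR-15b was well above background on vehicle 1 alone, with 0 of 10 spots on each of the other 5 arrays, so its difference is not read. The values of miR-15b thus rest on 1 probe.

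The size of these differences depended on how the arrays were scaled. On every array a probe of miR-16 was one of the 2 probes that bracket the 75th percentile, so miR-16 in part set the scale by which it was measured, and the spread of its scaled values (SD 0.03 after thioacetamide) is not independent of that scale. With the percentile taken over the 10 remaining probes once those of the family were left out, miR-16 differed by -1.92 ± 0.36 (SE; 95% confidence interval -2.78 to -1.05; limma adjusted p = 0.0117) and miR-15b by -1.60 ± 0.34 (adjusted p = 0.0152). Both passed there. With the probes of miR-451 left out as well, the differences were -1.71 (adjusted p = 0.0179) and -1.39 (adjusted p = 0.0191). These scalings lowered the median difference of all 59 miRNAs by 0.74 and 0.58 and called 9 miRNAs lower each.

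A labelling spike-in was added to each RNA before the dye was attached, per the labels. Its spots were taken to be the control spots named dmr_285, a role the files do not state, so the values scaled to them hold only if that reading is right. Of the 5 scalings plotted, this one gave the smallest differences. There miR-16 differed by -0.33 (95% confidence interval -1.64 to 0.98; limma adjusted p = 0.835) and miR-15b by -0.02 (-1.29 to 1.25; adjusted p = 0.979). These intervals do not show that the levels were equal, since they hold changes of over 1 log2 unit either way for miR-15b. The median difference of all 59 miRNAs was 1.04 under this scaling, and relative to it miR-16 stood at -1.37 and miR-15b at -1.06. Relative to the median of all compared miRNAs, miR-16 stood at -1.58 under the 75th percentile, at -1.34 without scaling, at -1.62 without the family's probes, at -1.29 with the percentile over all probes and at -2.44 with quantile normalization. Except for quantile normalization these scalings move all miRNAs of an array by one factor, so the likeness of such values follows largely from their construction. Such values also depend on which miRNAs entered the median, as given above. For miR-15b the value was -1.26 under the 75th percentile and -1.03 with quantile normalization. The split of calls moved with the scaling as well, from 90% higher under the 75th percentile to 100% with no scaling or the spike-in, 75% with the median of the always detected miRNAs, 71.4% with quantile normalization, and 47.1% and 55% with the percentile over the reduced probe sets.

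**Figure D2:**
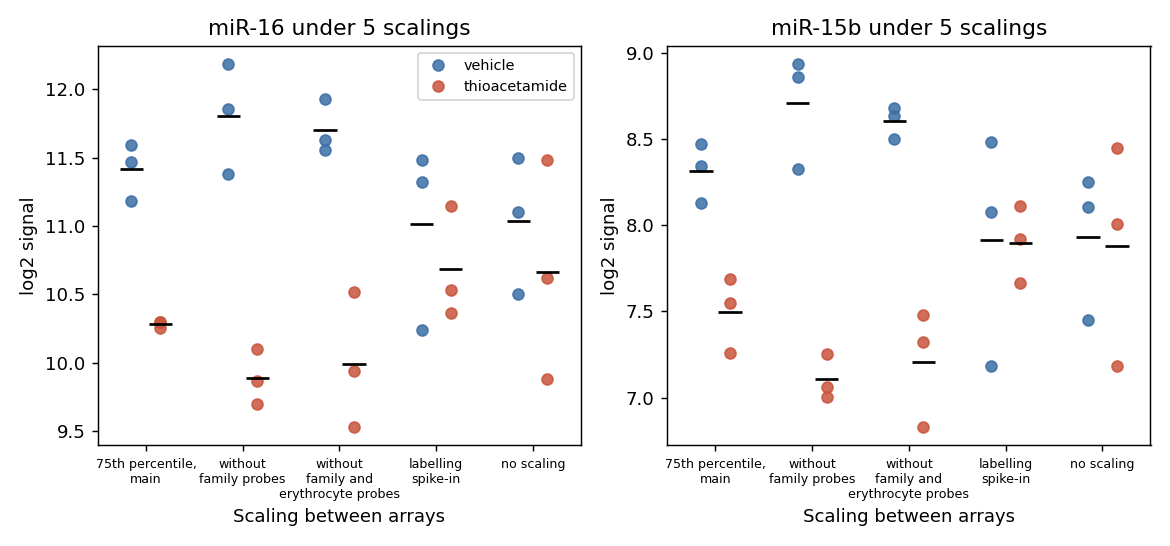
Log2 signal of miR-16 (left) and miR-15b (right) under 5 ways of scaling the arrays, with 1 point per array (blue vehicle, red thioacetamide, n = 3 per group) and black lines at the group means. The groups are apart under the 3 percentile scalings, with differences of -1.13, -1.92 and -1.71 for miR-16, and overlap with the presumed labelling spike-in and with no scaling.

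The file headers give each array a slide row and column. The arrays were split here into columns 1 and 2 and columns 3 and 4, and background differed between these sides. The labels do not name the sides. The spread of the miRNA spots was 33.3, 35.5 and 96.6 (median absolute deviation) in slide columns 1 and 2, which held vehicle 2, vehicle 3 and thioacetamide 1, and 4.92, 7.83 and 12.8 in columns 3 and 4, which held vehicle 1, thioacetamide 2 and thioacetamide 3. With the side of the slide as a block, miR-16 differed by -1.17 ± 0.33 and passed (limma adjusted p = 0.0478), where 2 of the 59 (3.39%) were called lower. miR-15b differed by -0.88 ± 0.34 without passing (adjusted p = 0.119). Within columns 1 and 2 the differences were -1.02 for miR-16 and -1.04 for miR-15b, and within columns 3 and 4 they were -1.32 and -0.72. Since the groups did not overlap, these directions were fixed and only their sizes inform. Leaving out vehicle 3 gave -2.02 for miR-16 (adjusted p = 0.0297) and -1.68 for miR-15b (adjusted p = 0.0328). Leaving out thioacetamide 1 gave -1.72 (adjusted p = 0.0103) and -1.28 (adjusted p = 0.0206). For each omission the reference probes and the scale were set anew, and 54 and 53 miRNAs were tested. These values therefore mix the loss of an array with a change of scale.

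Within-array differences of log2 signals were compared for 4 ratios of 2 miRNAs, which need no scaling, and for the clustered pair against the other members, which does depend on it. The p-values were adjusted over these 5. A ratio of 2 miRNAs shows unequal change only, never that one of them stayed constant. The signal of miR-16 was 35.0%, 34.2% and 34.2% of that of miR-451 on vehicle 1, 2 and 3. It was 33.1%, 40.8% and 44.4% on thioacetamide 1, 2 and 3. The vehicle arrays were nearly alike, thioacetamide 1 lay just below them, and thioacetamide 2 and 3 lay above. The group difference was 0.18 on the log2 scale (from -1.54 ± 0.02 to -1.35 ± 0.22, SD, n = 3; exact permutation p = 0.4, 0.4 adjusted). It was -0.047 within slide columns 1 and 2. A single array moved it, since it was 0.31 without thioacetamide 1 (exact permutation p = 0.1) and 0.093 without thioacetamide 3 (exact permutation p = 0.6).

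Within the cluster, the signal of miR-15b was 10.5%, 12.5% and 12.0% of that of miR-16 on the vehicle arrays and 12.2%, 15.4% and 16.3% on the thioacetamide arrays. The 2 highest values were those of thioacetamide 2 and 3, and thioacetamide 1 lay between vehicle 2 and vehicle 3. The log2 difference was 0.32 (exact permutation p = 0.2, 0.333 adjusted), so a difference in change between the cluster mates was not shown, and it was -0.013 within columns 1 and 2. It was 0.66 with the mean of log2 probes, which gives the dim shorter probe of miR-15b equal weight, and 0.23 to 0.44 with 1 array left out. The ratio of miR-15b to miR-451 differed by 0.50 (exact permutation p = 0.3, 0.375 adjusted), by 0.75 without thioacetamide 1 and by 0.32 without thioacetamide 3.

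miR-23a is a miRNA often taken as little affected by red cell leakage. The log2 difference of miR-16 and miR-23a was 4.39, 4.64 and 3.98 on the vehicle arrays and 4.10, 2.53 and 2.36 on the thioacetamide arrays. miR-23a was well above background on vehicle 1, thioacetamide 2 and thioacetamide 3 alone. On these 3 arrays the vehicle value was the highest. The values of vehicle 2, vehicle 3 and thioacetamide 1 set miR-16 against a signal not well above background, so the group difference of -1.34 (exact permutation p = 0.2, 0.333 adjusted) is given as a description only.

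**Figure D3:**
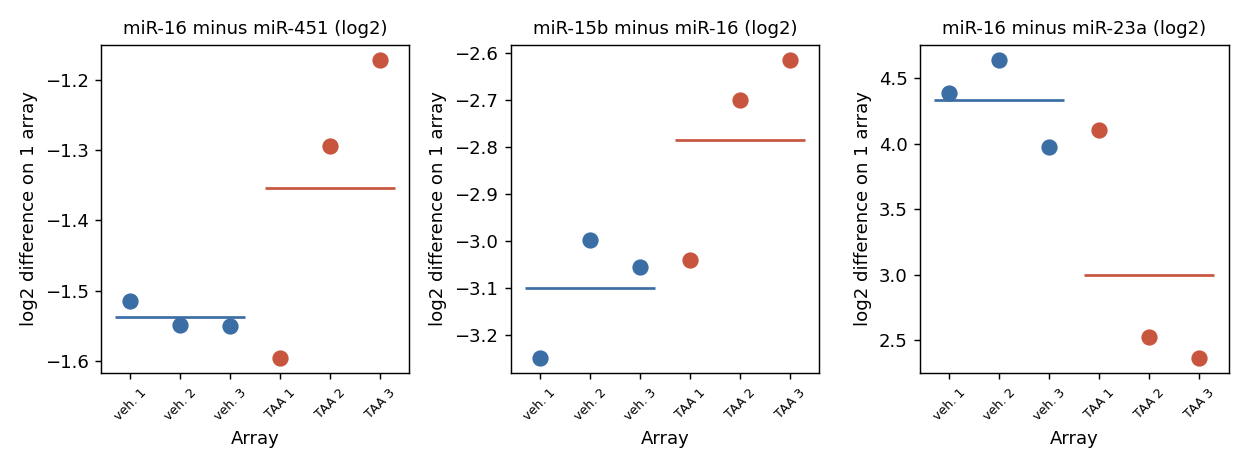
Log2 differences between 2 miRNAs on the same array, for miR-16 minus miR-451, miR-15b minus miR-16 and miR-16 minus miR-23a, with 1 point per array (blue vehicle, red thioacetamide) and lines at the group means (n = 3). The groups overlap in all 3 panels, and miR-23a was well above background on vehicle 1, thioacetamide 2 and thioacetamide 3 alone.

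The clustered pair was also set against the other members on each array, as the mean log2 signal of miR-15b and miR-16 minus that of miR-195, miR-497 and miR-322. This was 4.44, 4.44 and 4.13 on the vehicle arrays and 3.25, 3.38 and 3.47 on the thioacetamide arrays, with no overlap (difference -0.97, exact permutation p = 0.1, 0.333 adjusted). The other 3 members stood at the floor of 46.1, a minimum signal set before taking log2, on all 6 arrays. The difference therefore equals the mean difference of miR-15b and miR-16 and says nothing of change in the others. It was -1.85 without vehicle 3 and -1.50 without thioacetamide 1, each with the scale set anew. With a floor 0.25 times as high it was -1.57, although miR-16 and miR-15b stayed at -1.13 and -0.81. There miR-195 stood at the floor on 4 arrays and miR-497 on 3, so undetected signals of these members enter the value. It is not read as a larger difference of the pair.

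The dim members were read directly from their probes. No spot of miR-195, miR-497 or miR-322 was well above background on any array. The shorter and longer probes of miR-322 read between -37.0 and 0.909 over the 6 arrays, at background. The longer probe of miR-195 read 3.14 ± 1.65 (SD over 10 spots of 1 array), -15.9 and -16.7 on vehicle 1, 2 and 3, and -10.0, 21.2 ± 2.84 and 29.6 ± 4.15 on thioacetamide 1, 2 and 3. Its highest values were those of thioacetamide 2 and 3, below the 42.1 and 46.4 of the dimmest detected probes there, and the groups overlapped. The longer probe of miR-195 would leave 2 of its bases unpaired on miR-16. The longer probe of miR-16 read 2352 on vehicle 1, 747 on thioacetamide 2 and 1251 on thioacetamide 3. The longer probe of miR-195 read 3.14, 21.2 and 29.6 on these arrays. Binding of miR-16 to the probes of miR-195 was not tested.

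The longer probe of miR-497 read 9.46, 6.20 and 8.39 on vehicle 1, 2 and 3 and 64.8, 21.8 and 21.4 on thioacetamide 1, 2 and 3. The groups did not overlap, before or after scaling (scaled signal, exact permutation p = 0.1, the smallest possible). Yet 0 of 58 unmarked spots of this probe were called well above background. No fold is given for it, since no array of either group was well above background. Its shorter probe read -6.58 to 14.2 and its groups overlapped, as did those of the probes of miR-195 and miR-322. Among the 59 miRNAs compared, the groups did not overlap in 22 (37.3%), and the share among undetected probes was not counted. The 64.8 of the longer probe on thioacetamide 1 was below the spread of the miRNA spots there, 96.6 (median absolute deviation).

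**Figure D4:**
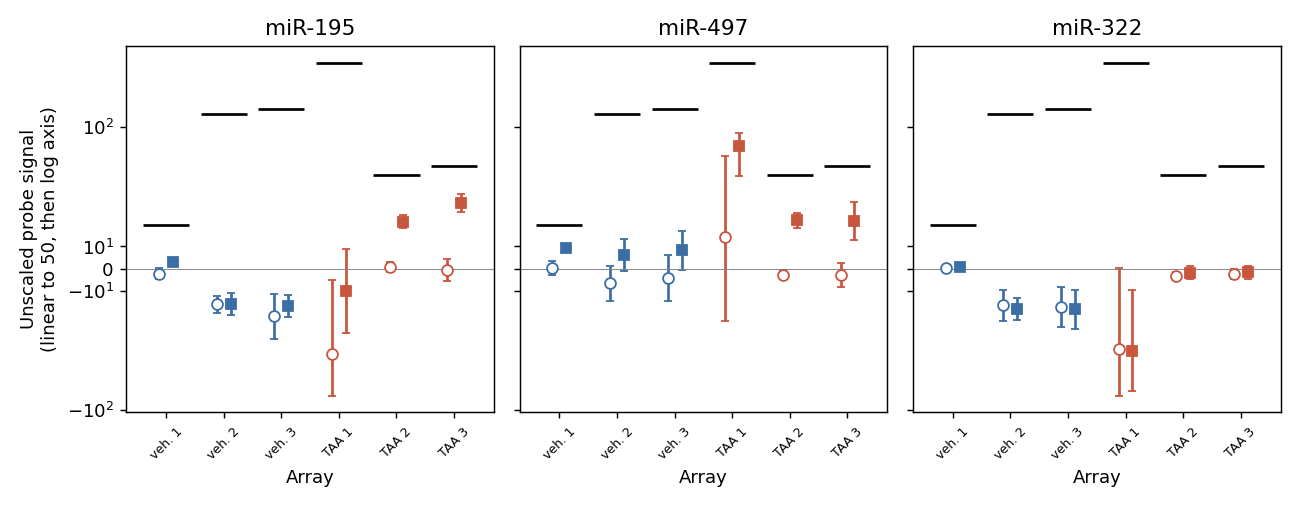
Unscaled probe signals of miR-195, miR-497 and miR-322 on each array, as the mean ± SD of a probe's unmarked spots (up to 10), with open circles for the shorter and squares for the longer probe (blue vehicle, red thioacetamide) on an axis that is linear to 50 and logarithmic beyond. Black dashes mark the dimmest probe detected on each array, from 19.6 on vehicle 1 to 444.5 on thioacetamide 1, and every symbol lies below its dash.

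A list of 12 relatives held the opposite arms, the cluster neighbours and the miRNAs with the shifted seed. The opposite arms miR-16*, miR-15b*, miR-195*, miR-497* and miR-322*, which are usually degraded once the other arm is loaded into Argonaute, were well above background on 0 arrays. So were miR-503, miR-351, miR-542-3p, miR-542-5p and miR-450a, neighbours of miR-322 on the X chromosome. Thus of the Mir16 hairpin shown above, the 5′ arm was detected on all 6 arrays and the 3′ arm on 0. Of the list, 2 were detected on any array and 1 was compared. miR-103 was detected on vehicle 1 alone. miR-107 was detected on vehicle 1, thioacetamide 2 and thioacetamide 3 and differed by 0.52 ± 0.42 (SE, limma adjusted p = 0.395). In this list 0 rose, 0 fell and 1 did not pass.

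The tested miRNA most like miR-16 over the 6 arrays was miR-451, a red cell miRNA made without Dicer (Pearson r = 0.98 over the 6 arrays, among 58 others). It was followed by miR-15b (r = 0.94), miR-20b-5p (0.93), miR-106b (0.90) and let-7i (0.85). Most like miR-15b were miR-16 (0.94), let-7i (0.93), miR-451 (0.88), miR-20b-5p (0.87) and miR-20a (0.86). All of these had log2 differences below 0, as did 24 of the 59 (40.7%). The 6 points of each r fall into the 2 groups and share each array's brightness and scale, so r is a description only. Without scaling, r was 0.98 between miR-16 and miR-451 and 0.94 between miR-16 and miR-15b. The unscaled signal of miR-16 spanned 3.06-fold over the arrays and that of miR-451 3.74-fold.

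**Figure D5:**
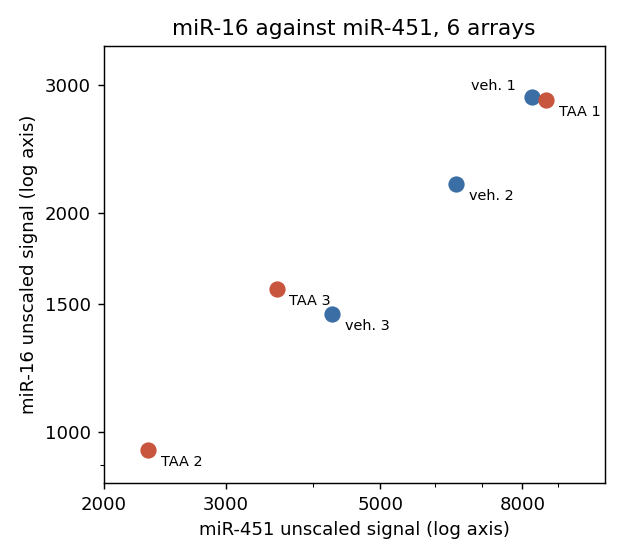
Unscaled signal of miR-16 against that of miR-451 on the 6 arrays, both on log axes (blue vehicle, red thioacetamide). The points lie close to one line, with thioacetamide 1 beside vehicle 1 at the top and thioacetamide 2 at the bottom.

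Markers of other cell types were read on the same arrays. Among them miR-451 fell, 4 of 5 hepatocyte markers rose, and no compared leukocyte or platelet and endothelial marker passed. Of all 59 miRNAs compared, 9 were higher (15.3%) and 1 was lower (1.69%). Of 3 erythrocyte markers 2 were on the array by name. miR-451 fell by 1.31 ± 0.34 on the log2 scale (limma adjusted p = 0.0427), with the highest adjusted p over its alternatives at 0.673. The call ended with no scaling (-0.56, adjusted p = 0.598), with the spike-in (-0.52, adjusted p = 0.644), with the percentile over all probes (-1.05, adjusted p = 0.673), with a lower floor (-1.31, adjusted p = 0.0619) and with no filter (-1.31, adjusted p = 0.10). It also ended without vehicle 1 (-1.24, adjusted p = 0.0647), vehicle 2 (-1.28, adjusted p = 0.122), thioacetamide 2 (-1.27, adjusted p = 0.0744) or thioacetamide 3 (-1.23, adjusted p = 0.103). Within columns 1 and 2, which held 1 thioacetamide array, miR-451 differed by -0.98. miR-144, from the precursor cluster of miR-451, was called detected on 0 arrays. A probe of miR-144 had 5 of 10 spots well above background on vehicle 1, short of the required share of over 50%. The summed unscaled signal of these markers was 4206 to 8288 on the vehicle and 2317 to 8497 on the thioacetamide arrays. Of 5 leukocyte markers on the array 3 were compared and 0 passed, with sums of 347 to 538 and 302 to 847. The platelet and endothelial list had miR-126 and miR-126* well above background on 0 arrays, and miR-223, also in the leukocyte list, as its 1 tested member. Of 5 hepatocyte markers 4 rose, and their summed signal was 339 to 426 on the vehicle and 29112 to 52592 on the thioacetamide arrays. The part of red cell, leukocyte or liver RNA in the values of miR-16 and miR-15b was not tested.

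The family held a smaller share of the signal on each thioacetamide array than on any vehicle array. miR-16 and miR-15b together made up 17.3%, 11.7% and 11.8% of the unscaled signal of the 59 compared miRNAs on vehicle 1, 2 and 3. They made up 4.60%, 2.10% and 2.04% on thioacetamide 1, 2 and 3. The mean share was 13.6% ± 3.18 (SD, n = 3) against 2.91% ± 1.46, without overlap (exact permutation p = 0.1). With miR-122, the main hepatocyte miRNA, left out of the total, the shares were 17.4%, 11.8% and 11.8% against 5.99%, 3.18% and 3.46%. miR-15b alone made up 1.27% to 1.64% on the vehicle and 0.280% to 0.499% on the thioacetamide arrays. A share is lower wherever other miRNAs are higher, and these are shares of signal, not of molecules.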

How the data were processed

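Plasma miRNAs of 6 rats were measured on 1 Agilent array each, and groups were taken from the sample titles. The deposited intensity of a spot is linear and background-subtracted. The submitters' processing notes name Agilent Feature Extraction 10.7.3.1 as its source, and it is neither log transformed nor scaled between arrays. Flags for each spot come from the same files. The deposited matrix equals these intensities to within 0.005.

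Outlier-marked and control spots were left out, and no spot was saturated. A probe was called detected when over 50% of its spots were well above background (multiple of 13 per the file headers). Spot signals were averaged per probe and summed per miRNA, and each array was divided by the 75th percentile of the 12 probes that were detected everywhere (8 miRNAs, miR-16 among them). Sums under 46.1, the 5th percentile of detected sums, were set to that value before log2. A miRNA was tested if 3 or more arrays detected it (59 miRNAs). The test was limma 3.58.1 in R 4.3.3 (treatment as the only term), with Benjamini-Hochberg adjustment and a threshold of 0.05. For single values the exact permutation test was used, two-sided. The scripts were tested on simulated data.

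Named are the members, a list of their other arms, neighbours and relatives, the 5 miRNAs most like miR-16 and miR-15b, the miRNAs of the ratios, and cell type markers. Members, lists and tests were chosen with earlier results of these data known. Deviations of same-numbered arrays from their group means had correlations of -0.70, -0.31 and -0.66. Such deviations carry each array's background, so they cannot decide whether replicate numbers pair the arrays. A replicate block was therefore kept as an alternative. Alternatives covered scaling, background, floor, filter, spot and probe summary, blocks and each array left out. With an array left out, the reference probes, the scale and the tested miRNAs were set anew.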

Additional observations from a re-analysis of the deposited data

How the results depend on the processing

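The mean of miR-16 was lower after thioacetamide in all 28 alternatives run (-2.38 to -0.33) and that of miR-15b in all 27 (-1.68 to -0.02). Filters, floors, limma options and blocks reused scaled values whose groups did not overlap, so their directions were fixed. With no scaling and with the presumed spike-in the groups overlapped. For miR-16 the adjusted p ranged from 0.00343 to 0.835. It passed the threshold with the median of the always detected miRNAs (-1.48), the percentile without family probes (-1.92) or without family and erythrocyte probes (-1.71), and quantile normalization (-2.38). It also passed with a floor 4 times as high, miRNAs detected on at least 1 or on all arrays and limma's trend and robust options (-1.13 each). The mean of log2 probes (-1.12), the median of spots (-1.16), the slide side as a block (-1.17) and the omission of vehicle 3 or thioacetamide 1 gave a pass too. Columns 3 and 4 alone (-1.32) held 1 vehicle array, so only the size is given. For miR-15b the adjusted p ranged from 0.0113 to 0.979 and it passed in 6: without family probes (-1.60) or family and erythrocyte probes (-1.39), with the high floor (-0.73), with the filter at 1 array (-0.81) and without vehicle 3 or thioacetamide 1. Leaving out 1 array, with the scale set anew each time, gave -2.02 to -1.04 for miR-16 and -1.68 to -0.74 for miR-15b.

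Counts of miRNAs higher and lower, 9 and 1, became 22 and 0 with no scaling, 19 and 0 with the presumed spike-in, 3 and 0 with the percentile over all probes, 4 lower with the median, 9 lower with either reduced probe set, 5 and 2 with quantile normalization, 5 higher with normexp, 4 lower with the high and 0 lower with the low floor, 2 and 0 with no filter, 14 and 5 with the filter at 1 array, 0 and 2 over those on all, 2 lower with the mean of log2 probes, the median of spots, trend and robust or the slide block, 33 and 4 within columns 3 and 4, 0 and 0 within columns 1 and 2, and 6 to 18 higher and 0 to 7 lower with 1 array left out. The median change of all miRNAs, 0.45, was -0.29 without family probes, -0.13 without erythrocyte probes too, -0.020 with normexp, -0.27 over miRNAs detected on all arrays, -0.42 within columns 1 and 2, and -0.46 to 0.87 with 1 array left out.

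With the replicate block, miR-16 stayed at -1.13 (adjusted p = 0.145) and miR-15b at -0.81 (adjusted p = 0.257), and 0 miRNAs were called lower. The call of miR-451 ended there (adjusted p = 0.106). Within columns 1 and 2 the log2 ratios miR-15b to miR-16 (-0.013), miR-16 to miR-451 (-0.047) and miR-15b to miR-451 (-0.061) were negative, the reverse of all 6 arrays, and the cause was not tested. The share of miR-16 and miR-15b differed by -12.8 to -9.44 percentage points in all 9 alternatives run. With 3 arrays a group, no exact test could pass 0.05.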
